A study of Vulpes vulpes with 48 samples.

Results

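Silver foxes (Vulpes vulpes) bred for tame behaviour had more RNA of 6 genes than foxes bred for aggressive behaviour, in the right prefrontal cortex and in the right basal forebrain. The 6 genes were chosen by their measured line difference: in each of the 2 tissues the tame level was higher and edgeR's adjusted p was under 0.05. They are all of the genes that met this rule among 12563 genes tested in both tissues. All 6 passed the filter on low counts in both tissues. The line differences of these genes are therefore a description of the choice and are given without a test. Tissue differences averaged over lines were not used to choose them, nor were correlations of deviations between foxes of 1 line. The spread within a line did enter the choice, through the p-values. Tissue differences within 1 line share group means with the contrasts that chose the genes.

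The animals were males aged 1.5 years, and the labels name no treatment, allele or agent for either line. Prefrontal cortex was represented by 12 tame and 12 aggressive libraries and basal forebrain by 10 tame and 12 aggressive libraries, since the tame forebrain libraries ID488 and ID490 are not used here. The lines are 2 breeding populations, so line differences and the descent of each population cannot be told apart. Libraries are poly(A) RNA of bulk tissue, in which fewer cells of a type and less RNA per cell cannot be told apart.

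As background, the prefrontal cortex is the frontal association cortex that takes part in planning and in the control of emotional responses. The basal forebrain lies below the striatum and holds the cholinergic neurons that project to the cortex, together with nuclei tied to motivation and social behaviour. The fox lines come from a long selection experiment in which foxes were bred on their response to people.

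The tables name genes by dog Ensembl identifiers, and 0 of 13202 identifiers matched the fox gene table at hand. The genes are therefore given by identifier, with no symbol, position, function or sequence, and the labelled tissues could not be checked against marker genes. None of the 6 genes shared all its values with another gene of its table. ENSCAFG00000023837 held fractions in 100% of its deposited values in all 4 groups, so reads assigned in part to other genes can enter its level. The other 5 genes held whole counts throughout.

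Depth per library, as the sum of counts in megacounts, was between 6.23 and 17.2 in the cortex and between 6.25 and 13.6 in the forebrain. On the first principal component of all cortex genes, which held 78.1% of the variance, the tame libraries ID191, ID190, ID187, ID186 and ID182 scored from 50.9 to 159, and the other 19 cortex libraries scored from -37.7 to -14.1. These 5 libraries were singled out after the data were seen. Line and tissue differences are given with and without them, and relations between genes in tame cortex mainly without them. Levels are CPM, counts scaled to a common library total, after TMM scaling (trimmed mean of M-values) within a tissue. They can be compared between groups of a tissue but not between genes, because gene lengths are not known. TMM factors in the cortex were 0.768 for ID191 and 0.748 for ID187. In the other cortex libraries they ran from 0.971 (ID186) to 1.08 (ID185). A factor below 1 raises the CPM of every gene in its library.

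ENSCAFG00000003681 was the least counted of the 6 genes and had the widest line difference in both tissues. In tame cortex its lowest, median and highest levels were 4.03, 8.93 and 17.0 CPM, and in aggressive cortex they were 3.21, 4.41 and 6.47 CPM. In tame forebrain the same values were 4.01, 6.96 and 7.92 CPM, against 2.21, 3.39 and 4.80 CPM in aggressive forebrain. The groups overlapped through a single tame library in each tissue: 11 of 12 tame cortex libraries lay above the highest aggressive library, all but ID181, and 9 of 10 tame forebrain libraries did, all but ID541. Means were 9.73 ± 3.60 against 4.55 ± 0.901 CPM in the cortex (SD, n = 12 each), a fold of 2.13 (95% interval 1.66 to 2.74). In the forebrain they were 6.72 ± 1.19 (SD, n = 10) against 3.45 ± 0.671 CPM (SD, n = 12), a fold of 1.95 (1.63 to 2.33). Its lowest deposited count in any library was 20, in aggressive forebrain.

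ENSCAFG00000007149 showed the opposite balance, with a wider line difference in the forebrain than in the cortex. Tame forebrain libraries ran from 9.91 through a median of 16.5 to 24.1 CPM, and aggressive forebrain libraries from 7.03 through 9.05 to 11.99 CPM. There 9 of 10 tame libraries exceeded every aggressive library, with ID487 as the exception. Cortex levels overlapped far more: the tame values were 32.7, 44.2 and 62.7 CPM and the aggressive values 20.8, 31.1 and 46.6 CPM, and 3 of 12 tame libraries (ID186, ID190 and ID191) exceeded the highest aggressive library, ID235. All 12 tame cortex libraries still lay above the aggressive median. The fold was 1.87 (95% interval 1.53 to 2.29) in the forebrain and 1.44 (1.22 to 1.71) in the cortex.

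ENSCAFG00000019865 had lowest, median and highest levels of 24.8, 41.2 and 97.9 CPM in tame cortex and of 21.4, 25.5 and 33.5 CPM in aggressive cortex. Its tame cortex range was set at the top by ID191 and ID187, at 97.9 and 94.1 CPM, and at the bottom by ID181, the single tame library below the aggressive maximum. Forebrain values were 30.3, 49.7 and 56.8 CPM in tame and 27.6, 30.7 and 41.2 CPM in aggressive foxes. There 8 of 10 tame libraries lay above the aggressive maximum, and ID486 and ID541 stood apart at 31.5 and 30.3 CPM. The fold was 1.90 (95% interval 1.48 to 2.46) in the cortex and 1.48 (1.29 to 1.71) in the forebrain.

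ENSCAFG00000000679 was nearly constant among aggressive foxes. Its aggressive cortex level had a mean of 121 ± 6.68 CPM (SD, n = 12), a coefficient of variation of 5.52%, while tame cortex had 214 ± 100.3 CPM (SD, n = 12) and a coefficient of variation of 46.9%. The lowest, median and highest tame cortex values were 120.3, 173 and 415 CPM, and the aggressive values were 113, 119.8 and 135 CPM. Libraries ID191 and ID187 stood at 415 and 413 CPM, while ID183 and ID188 fell inside the aggressive range. In the forebrain the tame spread was far narrower, with 131, 176 and 196 CPM against 122, 135 and 153 CPM. All tame forebrain libraries except ID483 (9 of 10) exceeded the aggressive maximum. The folds were 1.77 (95% interval 1.38 to 2.27) in the cortex and 1.28 (1.18 to 1.39) in the forebrain.

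ENSCAFG00000023837 and ENSCAFG00000009326 had the smallest cortex differences with all libraries; without the 5 libraries that of ENSCAFG00000009326 was the third largest of the 6. For ENSCAFG00000023837 the tame cortex values were 49.8, 66.4 and 95.6 CPM and the aggressive values 38.9, 49.97 and 54.9 CPM, with 8 of 12 tame libraries above the aggressive maximum. In the forebrain it stood at 47.6, 57.4 and 65.0 CPM in tame and 39.4, 43.2 and 50.3 CPM in aggressive foxes, with 7 of 10 tame libraries above. Its folds were 1.38 (95% interval 1.18 to 1.60) and 1.28 (1.17 to 1.40).

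For ENSCAFG00000009326 the tame cortex values were 38.2, 60.6 and 75.5 CPM and the aggressive values 36.7, 45.6 and 51.2 CPM. Here 10 of 12 tame libraries lay above the aggressive maximum, and the exceptions were ID187 and ID191, the libraries that were highest for ENSCAFG00000000679. Forebrain values were 68.8, 98.6 and 113 CPM in tame against 52.3, 68.0 and 85.7 CPM in aggressive foxes, with 7 of 10 tame libraries above. The folds were 1.32 (95% interval 1.16 to 1.51) and 1.39 (1.22 to 1.58).

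**Figure D1:**
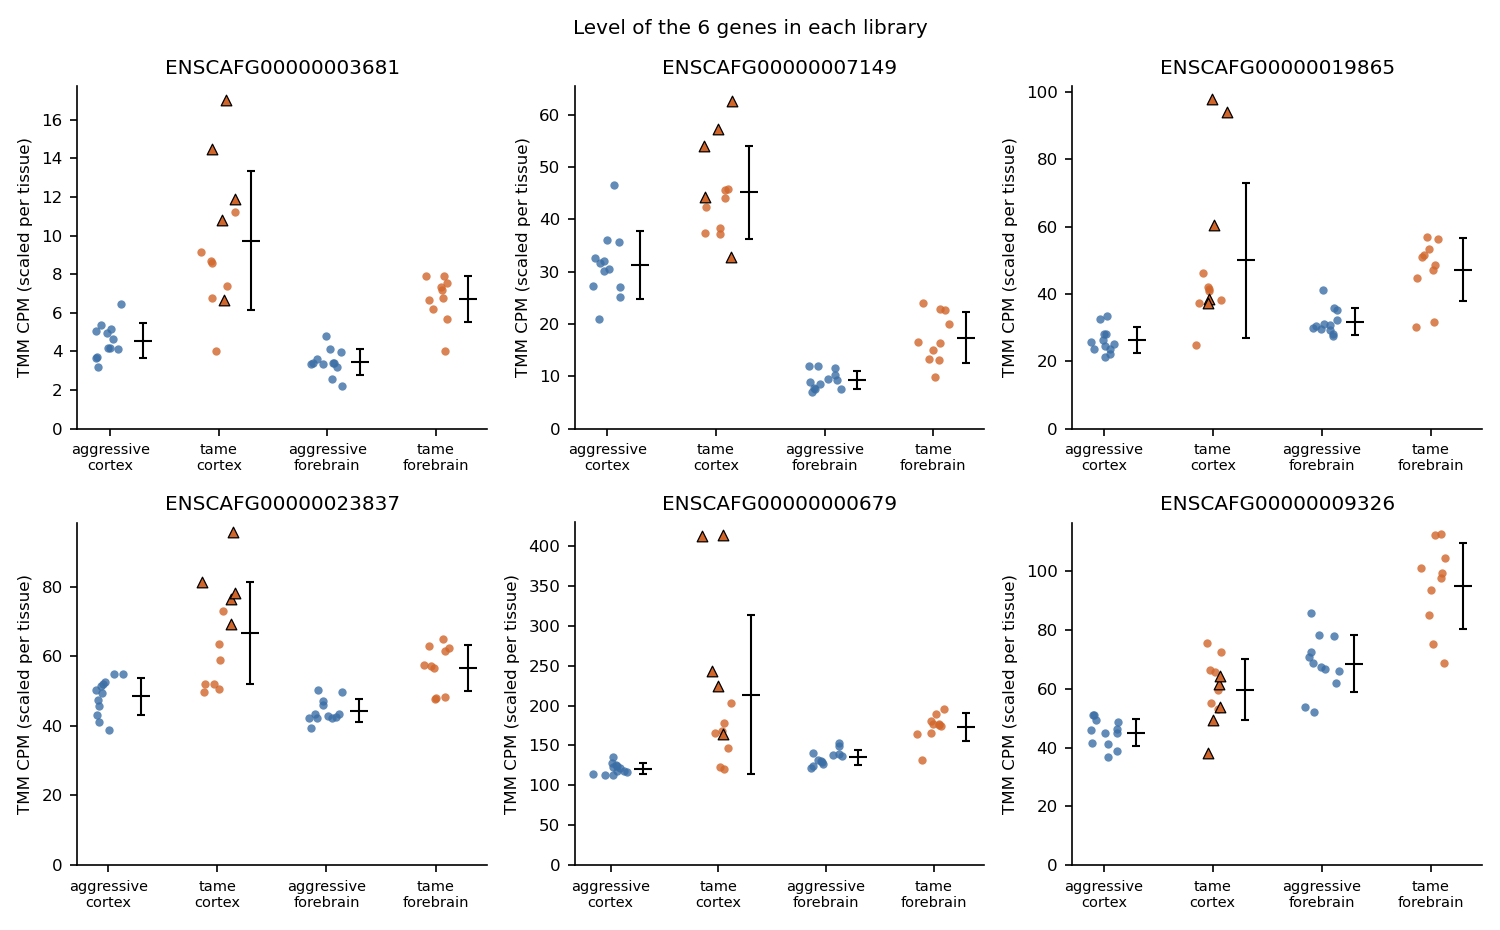
TMM-scaled CPM (y axis, from 0) of each gene in every library of the 4 groups (x axis), with the mean and SD as black bars. Triangles are the 5 tame cortex libraries apart on the first component. Tame and aggressive groups overlap for every gene in both tissues, and the tame cortex points of ENSCAFG00000000679 reach 415 CPM.

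None of the 6 genes separated the lines completely in either tissue. The share of all genes tested that did so was not computed. For each tame library, the genes above the aggressive maximum were counted, a count that is 0 for any aggressive library by definition. In the cortex, 2 of 12 tame libraries (ID186 and ID190) lay above the aggressive maximum for all 6 genes, 5 did so for 5 genes, and the lowest, ID181, did so for 2 genes. In the forebrain, 3 of 10 tame libraries (ID482, ID491 and ID492) exceeded it for all 6 genes, and the lowest, ID541, for 3 genes. The rule chose the genes for this direction, so these counts describe the choice.

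Side by side, the log2 fold changes of tame over aggressive were 1.09 in the cortex (SE 0.18) and 0.96 in the forebrain (SE 0.125) for ENSCAFG00000003681, and 0.53 (SE 0.12) and 0.90 (SE 0.14) for ENSCAFG00000007149. For ENSCAFG00000019865 they were 0.93 (SE 0.18) and 0.57 (SE 0.0998), and for ENSCAFG00000000679 0.82 (SE 0.17) and 0.36 (SE 0.056). ENSCAFG00000023837 had 0.46 (SE 0.11) and 0.36 (SE 0.061), and ENSCAFG00000009326 had 0.40 (SE 0.093) and 0.47 (SE 0.090). The median over the 6 genes was 0.68 in the cortex and 0.52 in the forebrain, and over all genes tested it was 0.02 and 0.01. The adjusted p-values that chose the genes ran from 0.00592 to 0.0464 in the cortex and from 0.000903 to 0.0293 in the forebrain (edgeR quasi-likelihood test). Of all genes tested, 0.338% were called higher in tame cortex and 0.0697% higher in tame forebrain. The rule's edge lay between ENSCAFG00000023837 and ENSCAFG00000009326, both with a cortex adjusted p of 0.0464, and ENSCAFG00000019914 just outside, with log2 fold changes of 0.79 and 0.44 and adjusted p-values of 0.0657 in the cortex and 0.0858 in the forebrain.

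**Figure D2:**
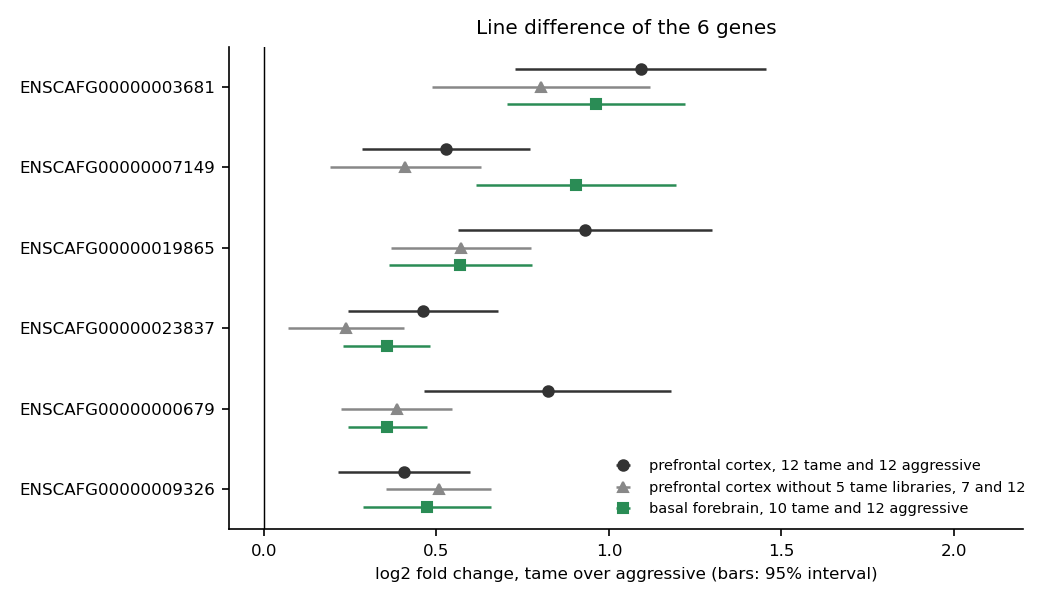
Log2 fold change of tame over aggressive foxes (x axis) with its 95% interval for each gene, in the cortex with all libraries (circles), in the cortex without 5 tame libraries (triangles) and in the forebrain (squares). For ENSCAFG00000000679 the cortex value moves from 0.82 to 0.39 without those libraries, beside 0.36 in the forebrain.

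The 5 tame cortex libraries apart on the first component were above the other tame libraries for most of the 6 genes and below them for 1. ENSCAFG00000000679 had a median of 244 CPM in the 5 libraries and 166 CPM in the other 7 tame libraries, with 4 of the 5 above all of the other 7. For ENSCAFG00000023837 the medians were 78.2 and 52.1 CPM, again with 4 of the 5 above. ENSCAFG00000019865 stood at 60.6 and 41.0 CPM, and ENSCAFG00000003681 at 11.9 and 8.60 CPM, each with 3 of the 5 above. ENSCAFG00000007149 split the 5 libraries, with 3 of the 5 above the other tame libraries and 1 (ID187) below all of them.

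ENSCAFG00000009326 went the other way: its median was 53.9 CPM in the 5 libraries and 65.9 CPM in the other 7, and none of the 5 lay above the other 7 (0 of 5). All 7 of the other tame libraries exceeded every aggressive library for this gene, against 3 of the 5. Its lowest tame cortex level belonged to ID187, the library with the highest score on the component.

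Without the 5 libraries, the cortex log2 fold change fell to 0.39 for ENSCAFG00000000679 (SE 0.078), to 0.57 for ENSCAFG00000019865 (SE 0.098), to 0.80 for ENSCAFG00000003681 (SE 0.15), to 0.41 for ENSCAFG00000007149 (SE 0.11) and to 0.24 for ENSCAFG00000023837 (SE 0.081). It was 0.51 for ENSCAFG00000009326 (SE 0.074), above its value with all libraries. The libraries of this fit are among those that chose the genes, so its values are a description and no independent test. The rule's threshold was met there by 4 of the 6 genes, with 0.11% of all genes called higher in tame foxes, and not by ENSCAFG00000007149 and ENSCAFG00000023837 (edgeR adjusted p of 0.147 and 0.373). What sets the 5 libraries apart was not tested.

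**Figure D3:**
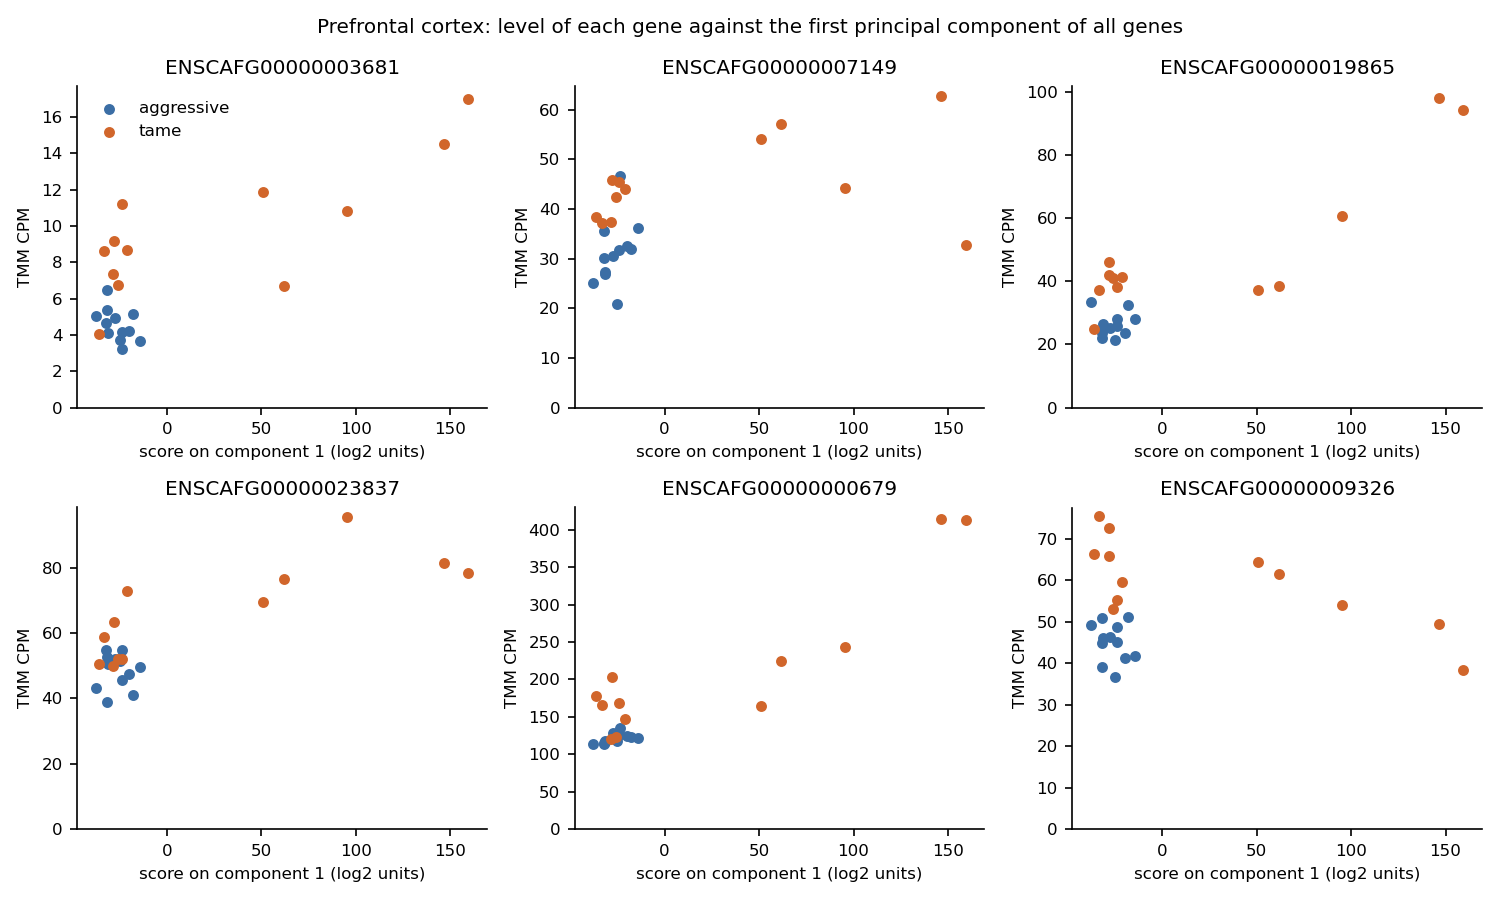
CPM of each gene (y axis, from 0) in the 24 cortex libraries against their score on the first principal component of all cortex genes (x axis). The 5 tame libraries lie from 50.9 to 159 on the x axis; ENSCAFG00000000679 and ENSCAFG00000019865 are highest at the right, and ENSCAFG00000009326 is at 38.2 CPM at the far right.

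The tissues were compared next, since their contrast averaged over lines was not used to choose the genes. A joint fit of 46 libraries over 12695 genes gave levels on a common TMM scale, which differ from the levels scaled within a tissue. For ENSCAFG00000000679, aggressive cortex moved from 121 to 129 CPM and aggressive forebrain from 135 to 126 CPM, which turned their order. A small tissue difference can therefore rest on the scaling. Each tissue has its own deposited table, so a tissue difference and a difference between tables cannot be told apart. Averaged over lines, 4 of the 6 genes were lower in forebrain than cortex and 1 was higher (edgeR, adjusted p under 0.05). Of all genes, 30.2% were lower and 33.8% higher.

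ENSCAFG00000007149 fell most from cortex to forebrain. On the common scale it stood at 48.1 ± 9.34 CPM in tame cortex and 33.4 ± 6.90 CPM in aggressive cortex (SD, n = 12 each), against 16.3 ± 4.51 in tame forebrain (SD, n = 10) and 8.67 ± 1.68 CPM in aggressive forebrain (SD, n = 12). The highest forebrain library, at 22.6 CPM, lay just above the lowest cortex library, at 22.4 CPM. On the log2 scale forebrain was at -1.75 relative to cortex (SE 0.095, edgeR adjusted p = 1.45e-20), and at -1.66 without the 5 cortex libraries. Its tissue difference was thus larger than its line difference in either tissue, and the order of levels was tame cortex, aggressive cortex, tame forebrain, aggressive forebrain.

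For ENSCAFG00000003681 the order was tame cortex (10.4 ± 3.804 CPM), tame forebrain (6.28 ± 1.11 CPM), aggressive cortex (4.87 ± 0.960 CPM) and aggressive forebrain (3.21 ± 0.622 CPM), with SD over 12, 10, 12 and 12 libraries. Tame forebrain and aggressive cortex overlapped widely, from 3.77 to 7.42 and from 3.44 to 6.93 CPM. The gene was lower in forebrain, at -0.66 on the log2 scale (SE 0.11, edgeR adjusted p = 1.44e-06), and at -0.47 without the 5 cortex libraries.

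ENSCAFG00000023837 was also lower in forebrain, at -0.38 on the log2 scale (SE 0.062, edgeR adjusted p = 9.45e-07). Without the 5 cortex libraries it was at -0.23 (SE 0.051, edgeR adjusted p = 0.000121). Its order was tame cortex (71.1 ± 15.4 CPM, SD, n = 12), tame forebrain (52.98 ± 6.15 CPM, SD, n = 10), aggressive cortex (51.9 ± 5.71 CPM, SD, n = 12) and aggressive forebrain (41.3 ± 3.13 CPM, SD, n = 12), and the middle groups did not differ beyond their spread.

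ENSCAFG00000009326 was the gene that rose from cortex to forebrain, by 0.44 on the log2 scale (SE 0.065, edgeR adjusted p = 8.81e-08), and by 0.43 without the 5 cortex libraries. Tame forebrain stood at 88.8 ± 13.8 CPM (SD, n = 10), aggressive forebrain at 63.8 ± 8.93 CPM, tame cortex at 63.6 ± 11.2 CPM and aggressive cortex at 48.2 ± 4.90 CPM (SD, n = 12 each). Aggressive forebrain and tame cortex were level within their spread.

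The tissue difference of ENSCAFG00000000679 depended on the 5 tame cortex libraries. With all libraries it was -0.27 on the log2 scale (SE 0.095, edgeR adjusted p = 0.0141), and without them it was -0.01 (SE 0.049, edgeR adjusted p = 0.854), where 31.8% of all genes were called lower in forebrain. Its levels were 228 ± 105.7 CPM in tame cortex (SD, n = 12), 162 ± 16.3 CPM in tame forebrain (SD, n = 10), 129 ± 7.14 CPM in aggressive cortex and 126 ± 9.22 CPM in aggressive forebrain (SD, n = 12 each). ENSCAFG00000019865 did not pass the threshold between tissues, with -0.09 on the log2 scale (95% interval -0.31 to 0.12, edgeR adjusted p = 0.444), and its sign turned to 0.13 without the 5 libraries. Its levels were 53.1 ± 24.3 CPM in tame cortex (SD, n = 12), 44.0 ± 8.66 CPM in tame forebrain (SD, n = 10), 29.6 ± 3.62 CPM in aggressive forebrain and 28.0 ± 4.01 CPM in aggressive cortex (SD, n = 12 each).

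Within aggressive foxes alone, where no library stood apart on the component, 3 of the 6 genes were lower in forebrain (ENSCAFG00000003681, ENSCAFG00000007149 and ENSCAFG00000023837), beside 22.2% of all genes, and 1 was higher (ENSCAFG00000009326), beside 25% of all genes. Their log2 fold changes were -0.60, -1.95, -0.33 and 0.40. Contrasts within 1 line share group means with those that chose the genes, so they are given as a description. ENSCAFG00000000679 was at -0.04 there (95% interval -0.30 to 0.23) and ENSCAFG00000019865 at 0.08 (-0.21 to 0.38). Within tame foxes 4 genes were lower, the same 3 and ENSCAFG00000000679, beside 27.7% of all genes, and ENSCAFG00000009326 was higher, beside 29.1%. Without the 5 cortex libraries, ENSCAFG00000003681 and ENSCAFG00000007149 were lower in tame forebrain, beside 26.8% of all genes, while ENSCAFG00000023837 was at -0.17 (edgeR adjusted p = 0.0643) and ENSCAFG00000000679 at -0.02 (edgeR adjusted p = 0.827).

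**Figure D4:**
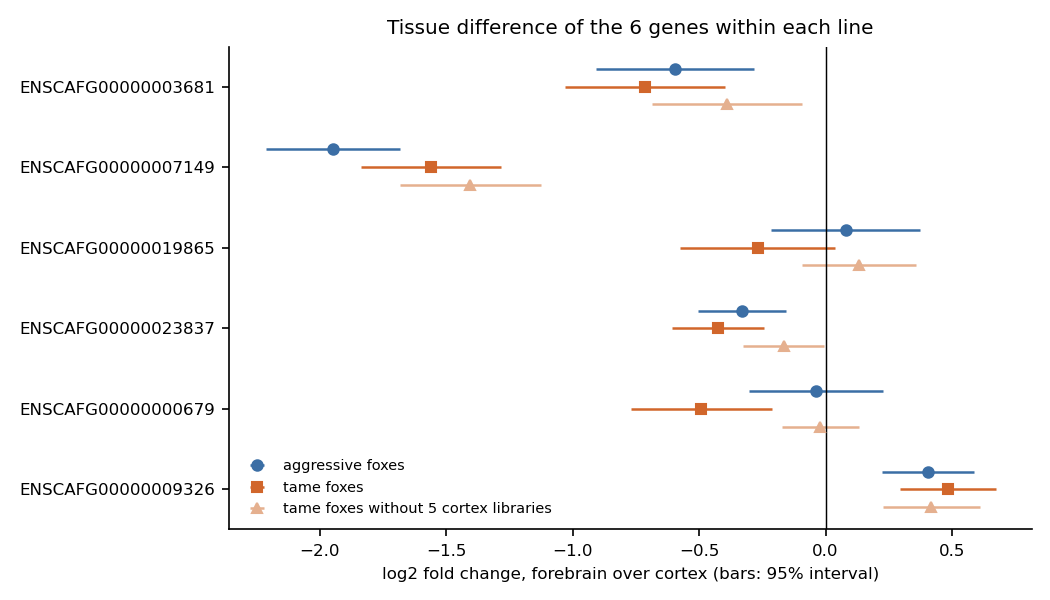
Log2 fold change of forebrain over cortex (x axis) with its 95% interval for each gene, in aggressive foxes (circles), tame foxes (squares) and tame foxes without 5 cortex libraries (triangles). ENSCAFG00000007149 is lowest, at -1.95 in aggressive foxes, and ENSCAFG00000009326 is the gene to the right of 0 in all 3 fits with an interval that leaves out 0.

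How far the line difference changed between tissues was estimated as forebrain minus cortex on the log2 scale. This is a difference of the 2 contrasts that chose the genes, so it is given as an estimate only. It was 0.39 for ENSCAFG00000007149 (95% interval 0.01 to 0.76) and -0.45 for ENSCAFG00000000679 (-0.84 to -0.07). The other 4 intervals included 0: -0.35 for ENSCAFG00000019865 (-0.78 to 0.08), -0.12 for ENSCAFG00000003681 (-0.56 to 0.33), -0.09 for ENSCAFG00000023837 (-0.34 to 0.16) and 0.08 for ENSCAFG00000009326 (-0.18 to 0.34). Across all 12695 genes the edgeR interaction test called 0 genes (0%), none of the 6 among them, with 1853 genes at an unadjusted p under 0.05, and DESeq2 called 2 genes. Without the 5 cortex libraries the estimate for ENSCAFG00000000679 was -0.02 (-0.22 to 0.18) and that for ENSCAFG00000007149 was 0.50 (0.13 to 0.88).

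Deviations between foxes of 1 line were examined to see whether the genes moved together apart from the line. Pearson and Spearman correlations of log2 CPM were computed for the 15 pairs of genes in each of the 4 groups, 60 relations in all. Over all 12 tame cortex libraries, as first planned, 9 of the 15 pairs had an unadjusted p under 0.05 by Pearson's r (permutation tests). There r ran from -0.74 to 0.81, and 0 pairs passed the adjustment (smallest adjusted p = 0.0627). These 12 libraries form 2 clusters on the component, which enter those values. The 7 outside the 5 were therefore used in tame cortex for the 60 relations that follow. No pair passed an adjusted p of 0.05 by either coefficient (0 of 60, permutation tests), and 3 had an unadjusted p under 0.05 by Pearson's r. The median r was 0.14 in aggressive cortex, 0.12 in aggressive forebrain, -0.07 in tame forebrain and 0.28 in the 7 tame cortex libraries.

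Of the 60 relations, the smallest p-value belonged to ENSCAFG00000000679 and ENSCAFG00000009326 in aggressive forebrain, which ran in opposite directions (r = -0.79, permutation p = 0.00209, adjusted p = 0.125; rho = -0.73, p = 0.00915, adjusted p = 0.549; n = 12). Without the 2 libraries farthest from the median of ENSCAFG00000000679, r was -0.48. The pair of ENSCAFG00000003681 and ENSCAFG00000019865 in tame forebrain had r = 0.74 (permutation p = 0.0234, adjusted p = 0.627; rho = 0.27, p = 0.450, adjusted p = 0.951; n = 10), and r was -0.50 without the 2 farthest libraries, so that relation rests on them. The third was ENSCAFG00000007149 with ENSCAFG00000000679 in aggressive cortex (r = 0.62, permutation p = 0.0314, adjusted p = 0.627; rho = 0.50, p = 0.103, adjusted p = 0.951; n = 12), with r = 0.38 without the 2 farthest.

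Cortex and forebrain libraries whose identifiers differ by 300 may be from 1 animal, but no label says so. There are 20 such pairs, 9 tame and 11 aggressive. For each set of pairs, deviations were centred on the mean of the pairs used of the same line. Among the 11 aggressive pairs, Pearson correlations of cortex and forebrain deviations ran from 0.01 for ENSCAFG00000023837 to 0.69 for ENSCAFG00000009326. For ENSCAFG00000023837 rho was -0.04. None passed the adjustment over the 6 genes (smallest adjusted p = 0.108, permutation test). The share of all genes with a positive correlation was not computed. Over all genes, deviations of the 2 libraries of a pair correlated above 0.1 in 14 of 20 pairs of both lines. That r ran from -0.003 (ID232) to 0.28 (ID229) in aggressive pairs and from -0.27 (ID183) to 0.32 (ID192) in tame pairs. Libraries of unlike numbers were not compared, so these values cannot show what a shared number adds. Among the 11 aggressive pairs, ENSCAFG00000009326 had r = 0.69 (permutation p = 0.0180) and rho = 0.55 (p = 0.0814, adjusted p = 0.244). Its r was 0.46 without the 2 farthest libraries. ENSCAFG00000007149 had r = 0.56 (permutation p = 0.0708, adjusted p = 0.212) and rho = 0.42 (p = 0.204, adjusted p = 0.408), and r = 0.71 without the 2 farthest.

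Leaving out the pairs that hold 1 of the 5 tame cortex libraries gave 16 pairs, a choice made after the data were seen. Over these, ENSCAFG00000009326 passed, with r = 0.79 (permutation p = 0.000640, adjusted p = 0.00384) and rho = 0.71 (p = 0.00574, adjusted p = 0.0344), and with r = 0.63 without the 2 farthest libraries. Over all 20 pairs ENSCAFG00000009326 had r = 0.43 (permutation p = 0.0705, adjusted p = 0.211) and rho = 0.52 (p = 0.0225, adjusted p = 0.135), and none of the genes passed (0 of 6, 1 with an unadjusted p under 0.05 by Pearson's r, ENSCAFG00000007149).

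**Figure D5:**
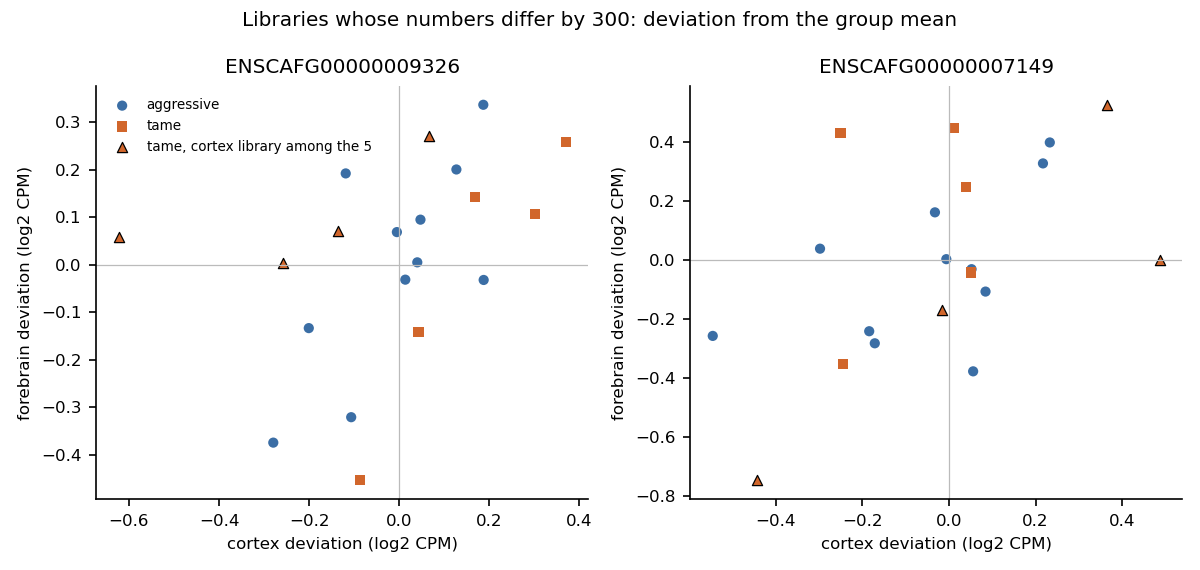
Deviation from the group mean in the cortex (x axis) and in the forebrain (y axis), in log2 CPM on the common scale, for 20 library pairs with identifiers 300 apart. Each r was computed after centring on the mean of the pairs used of each line, so it is not the correlation of the points as drawn. For ENSCAFG00000009326 (left) that r was 0.79 over the 16 pairs drawn as circles and squares and 0.43 over all 20. Of the 4 triangles, pairs with 1 of the 5 cortex libraries, ID187 lies farthest left at -0.62. ENSCAFG00000007149 is at the right.

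The genes most like each of the 6 were sought among the 12689 other genes by the Pearson correlation of deviations from group means over all 46 libraries, given as a description without a test. The closest likeness was between ENSCAFG00000000679 and ENSCAFG00000005469, at r = 0.90, and at 0.76 over the 41 libraries outside the 5. The next was between ENSCAFG00000019865 and ENSCAFG00000019186, at r = 0.79, and at 0.62 over the 41 libraries. Neither partner was the closest over the 41 libraries, where the highest r was 0.78 for ENSCAFG00000000679 and 0.66 for ENSCAFG00000019865. For the other 4 genes the highest r ran from 0.65 for ENSCAFG00000007149 to 0.77 for ENSCAFG00000023837. These points share libraries, depth and, in the cortex, the first component.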

How the data were processed

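The authors deposited 1 table of estimated counts per dog Ensembl gene for each tissue, per the file headers. The submitters' processing notes name CASAVA 1.8.2, FastQC, Trimmomatic, BWA, bedtools, edgeR and the dog build canFam3, without roles; the counting program is not given in the sources used here. Reads of fox RNA set against a dog build can be lost where the species differ, which acts on both lines.

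Counts were rounded and fitted per tissue with edgeR 4.0.16 (R 4.3.3): filterByExpr with a minimum count of 10, TMM, robust quasi-likelihood F-test with line as the term, Benjamini-Hochberg adjustment over all 12705 cortex and 12915 forebrain genes. A joint fit of 4 group means over 12695 genes gave tissue and interaction contrasts. Log2 CPM used a prior count of 2. Correlations used 100000 shuffles, or exact permutation for 7 libraries. The fits and permutation tests were tested on simulated data.

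The 6 genes, the 5 cortex libraries set aside and the lists were chosen with earlier results of these data known. Genes named besides the 6 are the nearest gene outside the rule and the 2 most alike in deviations. Marker lists of symbols could not be used. The column headers give each library its own fox number, and nothing further states that libraries of 1 group come from separate foxes. The p-values measure the spread between libraries. No 2 libraries of a table held identical values. Alternatives were size factors, upper-quartile scaling, no filter, DESeq2 1.42.0, limma-voom (limma 3.58.1), svaseq (sva 3.50.0), Wilcoxon tests, unrounded counts and leaving out libraries.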

Additional observations from a re-analysis of the deposited data

Results flagged for a closer look

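For 1 of 6 genes, a tame forebrain library stood apart from the other 9. ENSCAFG00000000679 was at 131 CPM in library ID483, where the next lowest tame library was at 164 CPM. The gap made up 0.509 of the range of the 10 libraries, above the critical value of 0.466 for 10. About 1 in 20 such checks is passed by chance, and 6 were made; groups of 12 were not checked. Without ID483 the forebrain line difference of this gene was the largest of the fits that leave out a library, at 0.39 on the log2 scale. ID483 also scored highest on the first principal component of all forebrain genes, at 70.7, with ID485 next at 25.3. That component held 25.4% of the variance.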

How the results depend on the processing

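The log2 fold change of tame over aggressive stayed above 0 for all 6 genes in both tissues under every alternative that gave a value, single libraries left out included; DESeq2 gave no adjusted p for 3 cortex genes, whose values under it were not taken. The number of the 6 genes past the threshold did not. In the cortex it ran from 2 to 6 over 24 fits that each left out 1 library: 2 without aggressive ID229, ID230, ID231, ID232, ID233, ID234, ID236, ID237, ID239 or ID240 or tame ID182 or ID186, and 3 without aggressive ID238 or tame ID185, ID189 or ID190. Calls over all genes in these fits ran from 21 to 141, against 55 with all libraries. ENSCAFG00000003681 and ENSCAFG00000019865 passed in all 24, ENSCAFG00000000679 in 12, ENSCAFG00000007149 in 7, and ENSCAFG00000023837 and ENSCAFG00000009326 in 5 each, with adjusted p-values no higher than 0.102. All 3 cortex genes with a DESeq2 adjusted p passed, and DESeq2 called 869 genes there against 55. Surrogate variables called 4 of 6 (ENSCAFG00000007149 and ENSCAFG00000023837 at adjusted p = 0.0673 and 0.0885; 65 genes in all), and limma-voom quality weights called 5 (ENSCAFG00000023837 at 0.19, adjusted p = 0.181; 163 genes in all). ENSCAFG00000000679 was at 0.42 and 0.38 under these, against 0.82. With all libraries, edgeR called 12 genes in the forebrain, the 6 included. In the forebrain the count of the 6 was 5 or 6 over 22 such fits, and ENSCAFG00000009326 was the gene lost in 10. Those were the fits without aggressive ID530, ID537, ID540 or ID595 or tame ID482, ID483, ID486, ID489, ID491 or ID492. The Wilcoxon test called 0 of 6 there, with adjusted p-values from 0.0799 to 0.185, where it called 0 of all genes, and 6 of 6 in the cortex, where it called 225 genes. The cause was not tested.

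Between tissues within tame foxes, 3 genes passed without the 5 cortex libraries, against 5 with them. Of all genes, 27.7% were called lower in forebrain and 29.1% higher with them, and 26.8% were called lower without them. The share called higher without them is not given here, so ENSCAFG00000009326, higher in that fit, has no share beside it. Averaged over lines, ENSCAFG00000000679 was at -0.19 with upper-quartile scaling (adjusted p = 0.0804) and at -0.04 with limma-voom quality weights (adjusted p = 0.511). Signs turned in results that were not past the threshold. With quality weights, ENSCAFG00000019865 was at 0.0940 averaged over lines and 0.0935 in tame foxes, and without the 5 libraries at 0.127 and 0.133. In aggressive foxes ENSCAFG00000000679 was at 0.0558 with upper-quartile scaling and ENSCAFG00000019865 at -0.0416 with surrogate variables. The change of the line difference between tissues turned for ENSCAFG00000003681 (0.237 with quality weights, 0.0310 with surrogate variables, 0.166 without the 5 libraries), for ENSCAFG00000023837 (0.107, 0.0666 and 0.126), for ENSCAFG00000000679 (0.0296 with quality weights), and, without the 5 libraries, for ENSCAFG00000019865 (0.0111) and ENSCAFG00000009326 (-0.0258).

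With the pair number as a replicate block, limma-voom called 5 of 6 genes between tissues, as it did without the block. For comparison, the edgeR fit averaged over lines called 30.2% of all genes lower in forebrain and 33.8% higher. The block changed no other count of the 6. Deviations of paired libraries over all genes correlated from -0.27 to 0.32, 14 of 20 over 0.1. Over the 16 pairs outside the 5 libraries, 1 gene passed the relation between tissues, against 0 over all 20.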
